A study of Homo sapiens with 6 samples.

Results

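The hyaluronan matrix was described in A375 cells, an established human melanoma line, through 10 of the 57914 genes in the deposited tables. The 10 genes were taken by name: the link proteins HAPLN1 and HAPLN3, the proteoglycan VCAN, the synthases HAS2 and HAS3, the hyaluronan-cleaving factor CEMIP, the receptor CD44, and TNFAIP6, ITIH5 and ITIH6 of the inter-alpha-trypsin system. All 10 passed the filter on low counts. HAPLN1 and ITIH6 were selected on their log2 difference between these same libraries, so their values are given as a description with no test, and tests are given for the other 8. Cells were grown in high-glucose DMEM with FCS, stained with Aldefluor, which fluoresces where aldehyde dehydrogenases are active, and sorted. ALDH_High was the 5% of cells with the strongest signal and ALDH_Low the 5% with the weakest, with 3 libraries each. The labels name no drug, knockdown or other allele in either group, and they do not say whether the 3 libraries of a group came from separate cultures, so p-values measure the spread between these libraries, which may be technical.

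Hyaluronan is a long unbranched sugar chain that synthases in the plasma membrane extrude into the space around the cell. Lecticans such as versican and aggrecan bind it through their globular head, link proteins clamp that bond, and TNFAIP6 moves inter-alpha-trypsin heavy chains onto the sugar. CD44 anchors the coat to the cell, while hyaluronidases and CEMIP cut it into shorter pieces. In skin and melanoma this coat is known to set cell adhesion, hydration and migration.

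Total counts per library lay between 26692868 and 37830603. ALDH_High library 1 stood apart from the other ALDH_High libraries on the second principal component, at 49.1 against -22.0 and -32.5, so results that depend on it are given with and without it. Of the 8 melanocyte lineage markers, SOX10, MITF and S100B were expressed, while MLANA, TYR, DCT and TYRP1 had at most 3, 2, 10 and 11 counts in any library and PMEL at most 19. Summed over the 8 markers, the level was 428 to 514 TPM in ALDH_High and 120 to 130 TPM in ALDH_Low, most of it SOX10. S100B was higher in ALDH_High, at 32.2 ± 4.10 and 1.68 ± 1.33 CPM (SD, n = 3, log2 difference 4.28, edgeR adjusted p 9.03e-05). MITF, the melanocyte master regulator, went the other way within this list, at 13.0 ± 0.944 and 24.7 ± 6.62 CPM (SD, n = 3; log2 difference -0.92, SE 0.19, edgeR adjusted p 0.00667). The 8 fibroblast markers summed to 11.8 to 14.7 TPM in ALDH_High and 9.74 to 12.1 TPM in ALDH_Low, with COL3A1 at 11 counts or fewer. Within this list PDGFRB was lower in ALDH_High (log2 difference -0.80, edgeR adjusted p 0.00693). For the 5 keratinocyte markers the sums were 98.4 to 131 and 98.8 to 124 TPM, most of it KRT10. KRT5 was low in both groups and lower in ALDH_High, at 0.133 ± 0.0488 and 1.72 ± 0.941 CPM (log2 difference -3.63, edgeR adjusted p 0.000898). The 5 endothelial markers summed to 3.12 to 3.18 and 0.736 to 0.9498 TPM, a gap made by KDR, while PECAM1 had at most 35 counts. The 6 white blood cell markers summed to 3.51 to 7.90 and 1.94 to 2.77 TPM, most of it LYZ, with PTPRC at 4 counts or fewer and FCGR3A at 0. LYZ was higher in ALDH_High (log2 difference 1.65, edgeR adjusted p 0.0240) and CD14 lower (-1.96, edgeR adjusted p 0.0142). KRT5 and CD14 reached the filter on low counts only with ALDH_Low, so their p-values are a description. The part of these marker differences in the results was not tested. In bulk RNA, more cells that express a gene and more RNA per cell cannot be told apart.

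Of the 8 tested members, 4 were higher in ALDH_High, namely CEMIP, HAPLN3, TNFAIP6 and ITIH5. VCAN was lower, and HAS2, HAS3 and CD44 did not pass the threshold, an adjusted p of 0.05. Over all 17047 genes tested, 20.6% passed, 10.8% higher and 9.83% lower. The 5 members that passed were also the 5 whose groups did not overlap, which held for 37.8% of all genes tested. Each of the 5 had an exact two-sided permutation p of 0.1, the lowest that this design allows. Without ALDH_High library 1, 4 members were higher and 2 lower, HAS3 being the added one. Calls over the whole table also grew in that fit, to 4221 genes with 2049 lower, beside 3513 and 1675 with all libraries. The median log2 difference was 0.84 over the 8 members and -0.013 over all genes tested. TNFAIP6 and ITIH5 reached the filter, about 0.316 CPM in 3 libraries, through ALDH_High alone, so the median and the count rest in part on genes that had to differ. For the same reason the p-values of TNFAIP6 and ITIH5, here and below, are a description.

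**Figure D1:**
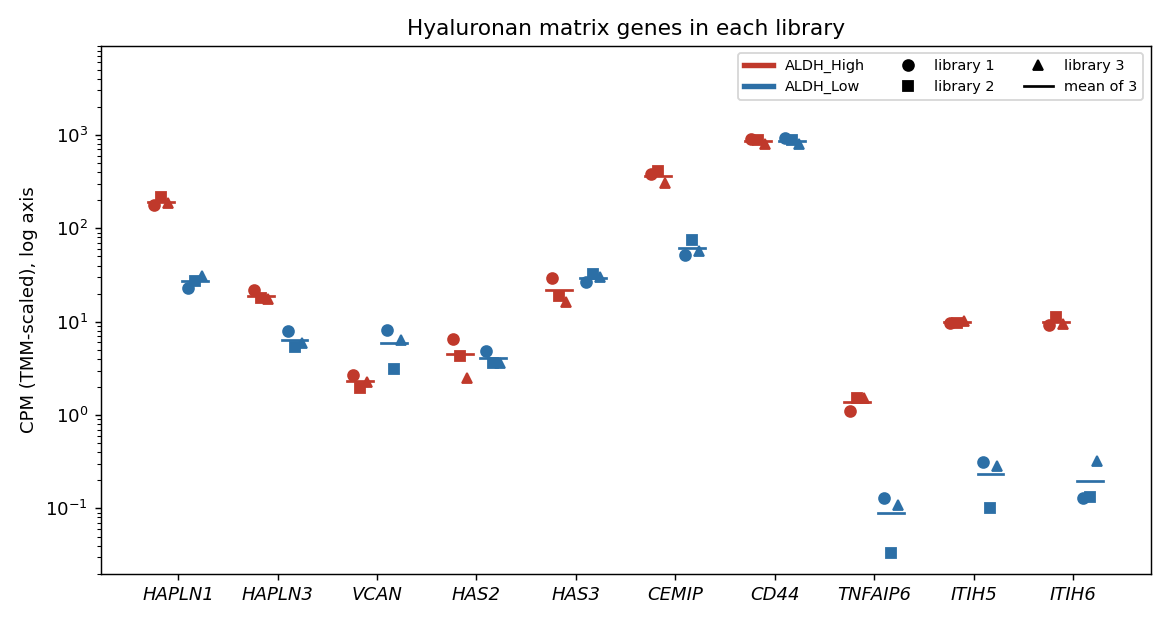
TMM-scaled CPM (log axis) of the 10 genes in each of the 6 libraries, red for ALDH_High and blue for ALDH_Low; symbols mark library 1, 2 and 3 and bars the mean of 3. CD44 lies near 864 CPM in both groups, HAPLN1 and CEMIP are apart by several fold, and ITIH5, ITIH6 and TNFAIP6 lie below 0.4 CPM in every ALDH_Low library.

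HAPLN1, the link protein best known from cartilage, was by TPM the most abundant member after CD44 in ALDH_High. CPM here are counts per 1000000 counts of a library, scaled by TMM factors, and values are given in the order of libraries 1, 2 and 3. HAPLN1 had 176, 216 and 187 CPM in ALDH_High and 23.1, 27.1 and 31.0 CPM in ALDH_Low. The lowest ALDH_High library was several times above the highest ALDH_Low library. Means were 193 ± 20.6 and 27.0 ± 3.98 CPM (SD, n = 3), a ratio of 7.15, and the edgeR log2 difference was 2.84 (SE 0.15). In TPM, which corrects for length, HAPLN1 stood at 138 ± 20.9 and 18.6 ± 2.20, rank 1168 and rank 6217 among the 57914 genes.

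HAPLN3, a link protein of wider tissue range, differed in the same direction at a lower level. Its values were 21.8, 18.0 and 17.3 CPM in ALDH_High and 7.99, 5.39 and 5.97 CPM in ALDH_Low. The groups did not overlap, and library 1 was the highest of its group on each side. HAPLN3 differed by 1.56 on the log2 scale (SE 0.19, edgeR adjusted p 0.000314). HAPLN1 made up 90.4 ± 1.83% of the summed TPM of the 4 link proteins in ALDH_High and 79.0 ± 6.31% in ALDH_Low (SD, n = 3), with HAPLN2 and HAPLN4 too low to be tested. The HAPLN1 share is a description that carries the choice of HAPLN1.

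VCAN encodes versican, a chondroitin sulfate proteoglycan whose bond to hyaluronan link proteins stabilise, and it moved the other way. VCAN stood at 2.68, 1.94 and 2.26 CPM in ALDH_High and at 8.09, 3.11 and 6.43 CPM in ALDH_Low. All ALDH_Low values were above all ALDH_High values, but ALDH_Low library 2 came close to them. For VCAN the log2 difference was -1.36 (SE 0.34, edgeR adjusted p 0.0172). This call was lost without ALDH_High library 2 (adjusted p 0.0698), ALDH_High library 3 (0.0524), ALDH_Low library 1 (0.0764) or ALDH_Low library 3 (0.0671), and in limma on log2(TPM + 1) over all genes (-0.57, adjusted p 0.253). The ratio of HAPLN1 to VCAN TPM was 199, 333 and 249 in ALDH_High and 8.56, 26.2 and 14.5 in ALDH_Low, a description that carries the choice of HAPLN1.

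HAPLN1 and VCAN are direct neighbours on chromosome 5 (GRCh38, GENCODE 44), VCAN on the plus strand at 83471618 to 83582303 and HAPLN1 on the minus strand at 83637805 to 83720855, with 55.5 kb between them. The 250 bases before each RefSeq start (build GRCh38.p14, 5′ to 3′ on the gene's strand) are shown because the pair are adjacent and differed in opposite directions. They run over chr5:83720856-83721105 (minus strand) for HAPLN1 and chr5:83471494-83471743 (plus strand) for VCAN. Capitals mark a match to 1 of 7 motifs searched on both strands, here the SOX core ACAAAG.
HAPLN1: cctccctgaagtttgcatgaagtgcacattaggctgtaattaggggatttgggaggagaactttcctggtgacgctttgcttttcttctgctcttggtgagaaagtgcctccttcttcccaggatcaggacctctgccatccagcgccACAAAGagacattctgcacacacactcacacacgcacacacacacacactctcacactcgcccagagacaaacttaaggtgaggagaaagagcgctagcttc
VCAN: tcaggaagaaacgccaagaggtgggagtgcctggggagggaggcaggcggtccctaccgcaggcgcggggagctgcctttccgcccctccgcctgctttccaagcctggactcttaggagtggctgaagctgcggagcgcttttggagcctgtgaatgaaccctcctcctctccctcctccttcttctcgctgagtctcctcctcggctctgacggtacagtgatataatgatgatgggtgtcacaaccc
The HAPLN1 window holds ACAAAG at bases 102 to 97 before the start, a motif found in 13.7% of 35116 promoters when the same 250 bases were searched. The VCAN window matched none of the 7, which says only that these letters are not in it. SOX10, a neural crest factor whose family binds such cores, had 810, 615 and 585 CPM in ALDH_High and 174, 197 and 210 CPM in ALDH_Low (log2 difference 1.79, SE 0.15, edgeR adjusted p 3.14e-05).

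The tested genes on either side of this pair did not pass the threshold. EDIL3, an integrin ligand 220 kb beyond HAPLN1, had 1.39 ± 0.0940 and 1.22 ± 0.351 CPM (log2 difference 0.19, edgeR adjusted p 0.740). The lncRNA AC010595.1, the next tested gene past EDIL3, had a log2 difference of -0.23 (edgeR adjusted p 0.720). On the VCAN side, XRCC4, a DNA end-joining factor, had a log2 difference of -0.28 (edgeR adjusted p 0.232), and TMEM167A one of -0.014 (edgeR adjusted p 0.955).

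Neither hyaluronan synthase among the members passed the threshold. HAS3 (chromosome 16, 69105653 to 69118719), the more abundant of the pair, had 29.6, 18.9 and 16.3 CPM in ALDH_High and 26.6, 32.1 and 30.0 CPM in ALDH_Low. ALDH_High library 1 lay inside the ALDH_Low range, and ALDH_High libraries 2 and 3 lay below it. The log2 difference of HAS3 was -0.45 (SE 0.21, edgeR adjusted p 0.160), with a 95% interval from -0.91 to 0.0056. Without ALDH_High library 1 it was -0.73 (adjusted p 0.00519), past the threshold, and without ALDH_High library 3 it was -0.27 (adjusted p 0.430). HAS3 also passed when no filter on low counts was used (-0.44, adjusted p 0.0467). The opposite-strand gene CHTF8 overlaps HAS3 and had 151 and 176 CPM; whether the counting used strand is not given in the sources used here, so part of the HAS3 count is uncertain.

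HAS2, a synthase of high-mass hyaluronan, was low in all libraries. It had 6.59, 4.31 and 2.52 CPM in ALDH_High and 4.88, 3.65 and 3.63 CPM in ALDH_Low. The ALDH_High libraries spanned the whole ALDH_Low range. The log2 difference of HAS2 was 0.13 (SE 0.33, edgeR adjusted p 0.828), with a 95% interval from -0.60 to 0.86, and -0.23 (adjusted p 0.603) without ALDH_High library 1. HAS1 had 0 counts in every library. Summed over the synthases, the level was 10.2 ± 2.83 TPM in ALDH_High and 12.9 ± 0.921 TPM in ALDH_Low, of which HAS3 made up 82.1 ± 3.05% and 86.9 ± 3.04% (SD, n = 3).

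CEMIP, a secreted protein needed for hyaluronan depolymerisation, rose in ALDH_High. Its levels were 380, 408 and 309 CPM in ALDH_High and 51.4, 75.1 and 57.7 CPM in ALDH_Low. The groups were far apart, with no library between them. CEMIP was 5.96-fold higher by the means, with a log2 difference of 2.58 (SE 0.17, edgeR adjusted p 9.12e-06). CEMIP (chromosome 15, 80779343 to 80951776) overlaps MESD on the opposite strand, which had 75.9 and 61.0 CPM (log2 difference 0.32, edgeR adjusted p 0.0554).

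Set against the synthases on the TPM scale, CEMIP was 5.92, 9.91 and 9.27 times their sum in ALDH_High and 0.921, 1.19 and 0.973 times in ALDH_Low. CEMIP alone stood at 82.1 ± 10.8 and 13.3 ± 2.87 TPM (SD, n = 3). Its paralog CEMIP2, a membrane-bound hyaluronidase, was higher as well, with 108 ± 17.8 and 53.4 ± 6.46 TPM (log2 difference 0.96, SE 0.14, edgeR adjusted p 0.000844).

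**Figure D2:**
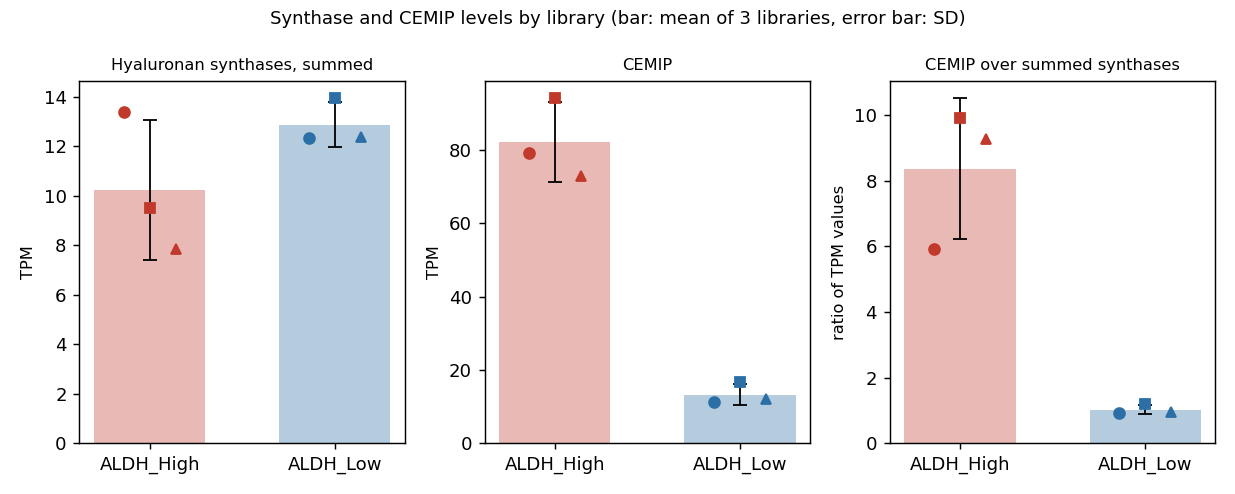
TPM by library of the summed hyaluronan synthases (left), of CEMIP (middle) and their ratio (right); bars are means of 3 libraries, error bars SD, points libraries 1 (circle), 2 (square) and 3 (triangle). The synthase sums overlap between groups, while the ratio is 5.92 or more in each ALDH_High library and 1.19 or less in each ALDH_Low library.

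CD44, the main hyaluronan receptor, was the most abundant of the 10 genes and showed no difference past the threshold. It had 912, 887 and 796 CPM in ALDH_High beside 923, 877 and 793 CPM in ALDH_Low. The groups overlapped almost fully. CD44 had a log2 difference of 0.0014 (SE 0.11, edgeR adjusted p 0.995), and its 95% interval corresponds to a fold between 0.846 and 1.18. CD44 lies on chromosome 11 at 35138882 to 35232402. Gene-level counts do not separate CD44 splice forms. The share of CD44 in the summed TPM of the 10 genes was 72.0 ± 1.34% in ALDH_High and 92.5 ± 0.929% in ALDH_Low, while HAPLN1 reached 21.2 ± 2.55% and 2.99 ± 0.669% of the CD44 level (SD, n = 3). CD44 itself stood at 653 ± 30.3 and 632 ± 67.7 TPM. Both percentages are a description that carries the choice of HAPLN1.

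**Figure D3:**
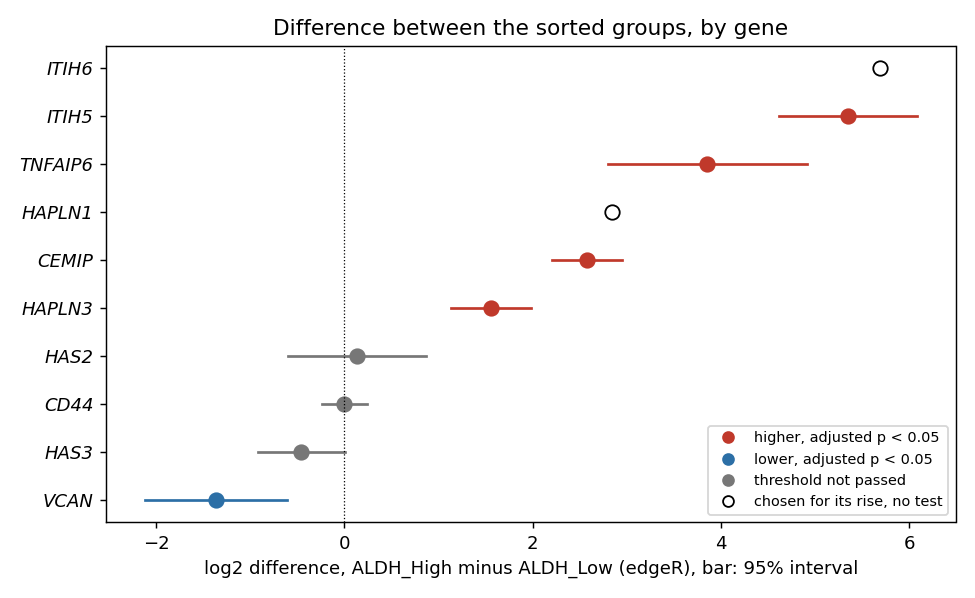
Log2 difference (ALDH_High minus ALDH_Low, edgeR) of each gene, with 95% intervals for the 8 tested genes; red passed the threshold as higher, blue as lower, grey did not pass, and open circles are the 2 genes chosen for their rise. The values run from -1.36 for VCAN to 5.69 for ITIH6, and the CD44 interval is centred near 0.

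TNFAIP6, ITIH5 and ITIH6 had few counts in ALDH_Low and were present at low levels in ALDH_High. TNFAIP6 (chromosome 2, 151357592 to 151380046), also called TSG-6, transfers heavy chains to hyaluronan. Its CPM values were 1.10, 1.53 and 1.52 in ALDH_High and 0.1297, 0.0335 and 0.108 in ALDH_Low, where it had between 1 and 5 counts. The groups did not overlap. The log2 difference of TNFAIP6 was 3.85 (SE 0.47, edgeR adjusted p 0.000336), and the ratio of summed counts by depth was 15.0, with a 95% exact interval of 7.65 to 33.4 that covers counting error only.

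ITIH5 (chromosome 10, 7559270 to 7666998), a heavy chain made outside the liver, had 9.58, 9.78 and 10.1 CPM in ALDH_High and 0.311, 0.1004 and 0.288 CPM in ALDH_Low. The ALDH_High libraries were within a few percent of each other, and the ALDH_Low libraries held 3 to 12 counts. The log2 difference of ITIH5 was 5.35 (SE 0.33, edgeR adjusted p 6.21e-06), and the ratio by depth was 40.7 (95% exact interval 27.0 to 64.6). As TNFAIP6 and ITIH5 reached the filter on low counts only with ALDH_High, their p-values are a description.

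ITIH6, a further heavy chain family gene, showed the widest gap of the 10 and was chosen for its rise. It had 9.11, 11.1 and 9.56 CPM in ALDH_High against 0.1297, 0.134 and 0.324 CPM in ALDH_Low, where 4 to 9 counts were seen. Its log2 difference was 5.69 (SE 0.34), the 13th highest of the 17047 genes tested, and the ratio by depth was 53.0. ITIH5 ranked 17th and TNFAIP6 88th on the same scale, HAPLN1 239th and CEMIP 309th. On the log2(TPM + 1) scale, which understates the change of low genes, the differences were 1.49 for TNFAIP6, 2.16 for ITIH5 and 2.04 for ITIH6. ALDH_High library 1 was the lowest of its group for HAPLN1, ITIH5, ITIH6 and TNFAIP6 and the highest for HAPLN3, VCAN, HAS2, HAS3 and CD44.

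The windows of 250 bases before the RefSeq starts of these genes (GRCh38.p14, 5′ to 3′ on the gene's strand) are printed because the genes differed together while their sequences are unlike in composition. They span chr2:151357342-151357591 (plus strand) for TNFAIP6, chr10:7666967-7667216 (minus strand) for ITIH5 and chrX:54798256-54798505 (minus strand) for ITIH6. Capitals again mark motif matches.
TNFAIP6: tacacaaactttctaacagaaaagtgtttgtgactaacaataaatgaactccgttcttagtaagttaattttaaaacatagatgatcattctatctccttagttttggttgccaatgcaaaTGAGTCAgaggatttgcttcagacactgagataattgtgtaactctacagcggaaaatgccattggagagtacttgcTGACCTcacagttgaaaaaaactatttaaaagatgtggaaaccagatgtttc
ITIH5: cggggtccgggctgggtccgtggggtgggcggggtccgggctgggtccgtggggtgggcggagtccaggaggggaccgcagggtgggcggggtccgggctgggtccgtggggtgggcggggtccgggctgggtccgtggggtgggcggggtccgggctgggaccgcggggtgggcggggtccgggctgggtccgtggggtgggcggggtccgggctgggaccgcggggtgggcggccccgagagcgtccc
ITIH6: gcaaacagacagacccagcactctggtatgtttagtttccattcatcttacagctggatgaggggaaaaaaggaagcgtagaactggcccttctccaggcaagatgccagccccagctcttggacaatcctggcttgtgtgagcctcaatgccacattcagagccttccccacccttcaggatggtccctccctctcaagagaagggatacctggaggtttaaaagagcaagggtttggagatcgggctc
TNFAIP6 was AT-rich, with 34.4% GC, above only 4.82% of all promoter windows, and 2 CpG sites. Its capitals are an AP-1 site, TGANTCA, at bases 129 to 123 before the start (6.57% of all windows hold one) and a retinoid receptor half-site, AGGTCA, on the other strand at bases 52 to 47 (12.1% of windows). ITIH5 had 82.8% GC, above 98.7% of windows, 28 CpG sites and an internal repeat. At its best spacing, 87 positions, 89.0% of the bases that had a partner within the window equalled it. The best spacing need not be the shortest repeat unit, and that of the other members gave 32.9 to 42.1%. ITIH6 had 52.4% GC, 2 CpG sites and no match. Among the 9 members with an entry in the table, CEMIP matched TATAAA (10.7% of windows) at bases 30 to 25, CD44 matched AGGTCA, and HAS3 matched ACAAAG and the E-box CACGTG (6.34% of windows). RefSeq and GENCODE starts differ for some members. The windows of HAS3 (chr16:69107290-69107539) and CD44 (chr11:35138921-35139170) lie inside the GENCODE genes. Those of VCAN, HAPLN3, CEMIP and ITIH5 overlap the GENCODE genes in part. The remaining motifs, GCCNNNGGC of the TFAP2 family (19.8% of windows) and ACAATG (9.29%), were in none of the 9. TFAP2B, a factor of that family, had 38.6, 18.8 and 29.8 CPM in ALDH_High and 2.39, 0.0335 and 1.44 CPM in ALDH_Low (log2 difference 4.45, SE 0.64, edgeR adjusted p 0.000900). TFAP2B reached the filter on low counts only with ALDH_High, so its p-value is given as a description. The TFAP2B difference was 5.34 without ALDH_Low library 1 (edgeR adjusted p 0.00165) and 3.90 without ALDH_Low library 2 (edgeR adjusted p 0.000210).

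ITIH6 lies on chromosome X at 54748918 to 54798255 (GRCh38, GENCODE 44), and its neighbours were not alike. The 2 tested genes that follow it at higher coordinates both rose. MAGED2, 9.34 kb away, had 80.9 ± 14.6 and 42.8 ± 0.0772 CPM (SD, n = 3; log2 difference 0.92, SE 0.14, edgeR adjusted p 0.00109). TRO, which encodes the adhesion protein trophinin, had 5.39 ± 0.427 and 0.786 ± 0.654 CPM (2.78, SE 0.56, edgeR adjusted p 0.00581). The TRO difference was 3.42 without ALDH_Low library 3 (edgeR adjusted p 0.00899) and 2.27 without ALDH_Low library 2 (edgeR adjusted p 0.00171). TRO reached the filter on low counts only with ALDH_High, so its p-values are a description. On the other side, FGD1 (-0.12, edgeR adjusted p 0.671) and GNL3L (0.086, edgeR adjusted p 0.744) did not pass.

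Among 62 other genes of hyaluronan and proteoglycan handling, 45 were expressed highly enough to be tested, and 10 were higher and 3 lower in ALDH_High. That is 28.9% of those tested, beside 20.6% of all genes, and their median log2 difference was 0.22. ACAN, HYAL4 and ADAMTS20 reached the low-count filter only with the group in which they were higher, so the count and the median rest in part on them. The count, the median and the p-values of ACAN, HYAL4 and ADAMTS20 are therefore given as a description. Aggrecan was the lectican that rose: ACAN, the cartilage partner of HAPLN1, had 19.0, 12.4 and 11.3 CPM in ALDH_High and 0.571, 0.201 and 0.539 CPM in ALDH_Low. No ALDH_Low library came near the ALDH_High range. For ACAN the log2 difference was 4.99 (SE 0.36, edgeR adjusted p 1.55e-05). ACAN and HAPLN3 lie side by side on chromosome 15, ACAN at 88803436 to 88875353 on the plus strand and HAPLN3 at 88877294 to 88895597 on the minus strand, and both were higher in ALDH_High. BCAN, brevican, was tested and did not pass (-0.63, edgeR adjusted p 0.3997), while NCAN had at most 5 counts. In this list 1 of 2 tested genes was called, or 50%, beside 20.6% of all genes, a description. In TPM, ACAN stood at 4.14 ± 0.916 against 0.542 ± 0.0587 for VCAN in ALDH_High, and at 0.124 ± 0.0592 against 1.34 ± 0.585 in ALDH_Low, so the order of these lecticans differed between the groups.

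**Figure D4:**
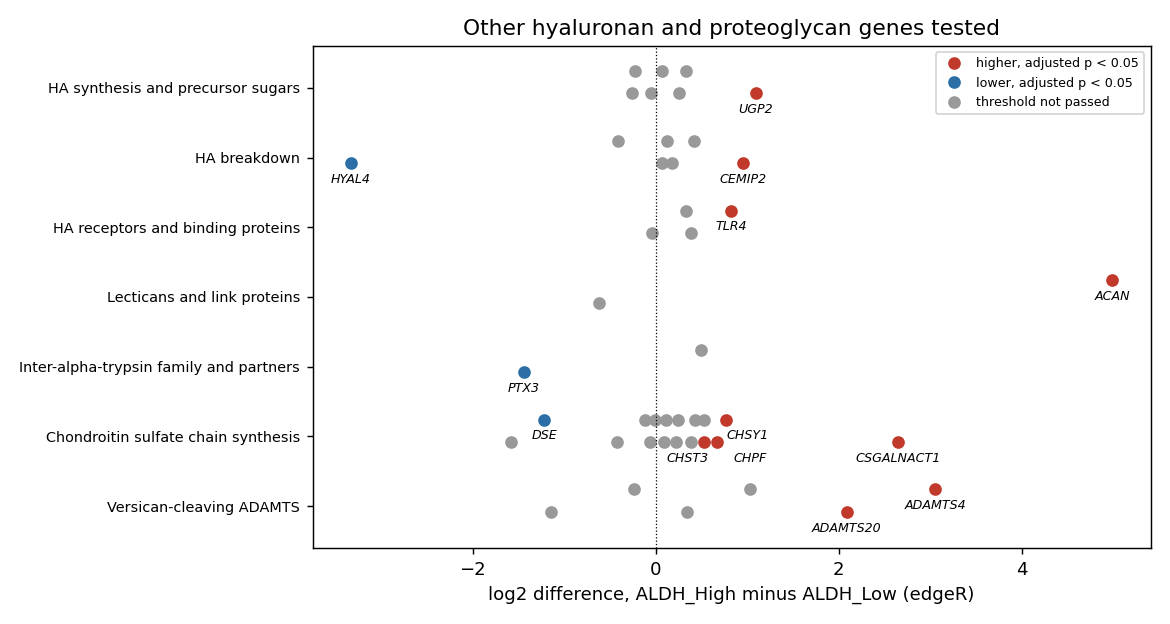
Log2 difference (ALDH_High minus ALDH_Low, edgeR) of the 45 tested genes in 7 lists; HA stands for hyaluronan, red and blue mark genes past the threshold as higher or lower, and grey the rest. ACAN lies farthest to the right at 4.99 and HYAL4 farthest to the left at -3.33.

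Of 7 tested genes of hyaluronan synthesis and its sugar precursors, UGP2 was called, as higher, and the list's median was 0.071. The share called was 14.3%, beside 20.6% of all genes tested. With so few genes per list, this share and those of the lists below are descriptions. UGP2, which makes UDP-glucose, was at 90.8 ± 7.36 and 42.5 ± 2.20 CPM (SD, n = 3; 1.09, SE 0.11, edgeR adjusted p 0.000114). UGDH, which turns UDP-glucose into UDP-glucuronate, did not pass (0.33, edgeR adjusted p 0.0951).

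In the breakdown list, CEMIP2 was higher and HYAL4 lower among 7 tested genes, with a median of 0.12. These calls were 28.6% of the list, beside 20.6% of all genes tested. HYAL4, a hyaluronidase family gene known to cut chondroitin sulfate, had 3, 1 and 2 counts in ALDH_High and 26, 17 and 23 in ALDH_Low. By depth it was 10.9-fold higher in ALDH_Low, with a 95% exact interval of 4.73 to 30.7 for counting error (log2 difference -3.33, SE 0.54, edgeR adjusted p 0.00174). HYAL2 (0.42, edgeR adjusted p 0.0966) and HYAL3 (-0.41, edgeR adjusted p 0.113) did not pass. Their groups did not overlap, which held for 37.8% of all genes tested.

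Of the receptors and binding proteins, 4 of 10 could be tested, and TLR4, an innate immune receptor that senses hyaluronan fragments, rose. TLR4 was the gene called among the 4, or 25%, beside 20.6% of all genes tested. Its values were 55.3, 57.2 and 55.3 CPM in ALDH_High and 35.2, 30.1 and 29.7 CPM in ALDH_Low (0.82, SE 0.12, edgeR adjusted p 0.000776). HMMR, a hyaluronan-binding protein that also acts on the mitotic spindle, did not pass (0.38, edgeR adjusted p 0.0551). The endothelial receptors LYVE1 and STAB2 had 0 counts in all libraries, which allows up to 3 counts in each. PTX3, which binds heavy chains and TNFAIP6 in the matrix, fell: it had 19.4, 27.8 and 24.2 CPM in ALDH_High and 60.7, 65.9 and 67.6 CPM in ALDH_Low (-1.44, SE 0.15, edgeR adjusted p 9.8e-05). PTX3 was the gene called in its list, where ITIH4 was also tested (0.49, edgeR adjusted p 0.526) and ITIH1, ITIH2, ITIH3 and AMBP were too low. That is 1 of 2 tested genes, or 50%, beside 20.6% of all genes tested.

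Chondroitin sulfate is the side chain that versican and aggrecan carry. Of 17 tested genes for its synthesis, 4 were higher and 1 lower, with a median of 0.22. Together these were 29.4% of the list, beside 20.6% of all genes tested. CSGALNACT1, which starts the chain, rose from 1.18 ± 0.568 CPM in ALDH_Low to 7.51 ± 2.75 CPM in ALDH_High (2.65, SE 0.39, edgeR adjusted p 0.000992). CHSY1, a chain polymerase, was at 105 ± 8.87 and 61.6 ± 4.63 CPM (0.77, SE 0.11, edgeR adjusted p 0.00109). DSE, an epimerase that converts the chain to dermatan sulfate, was the lower one, at 2.82 ± 0.239 and 6.57 ± 1.33 CPM (-1.22, SE 0.22, edgeR adjusted p 0.00363; all SD, n = 3). The other 2 that were higher were CHPF and CHST3, with log2 differences of 0.67 and 0.52.

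Of the 6 proteases of the ADAMTS family that cut versican, all were tested and 2 were higher, 33.3% beside 20.6% of all genes tested. ADAMTS4, an aggrecanase, had 58.6, 25.5 and 17.6 CPM in ALDH_High and 5.68, 2.41 and 4.03 CPM in ALDH_Low. The groups did not overlap, but ALDH_High library 1 was far above the other ALDH_High libraries. ADAMTS4 differed by 3.05 on the log2 scale (SE 0.45, edgeR adjusted p 0.000983), and by 2.42 without ALDH_High library 1 (edgeR adjusted p 0.000737). ADAMTS20 was at 1.33 ± 0.298 and 0.312 ± 0.0112 CPM (2.09, SE 0.36, edgeR adjusted p 0.00245), and the list's median was 0.68.

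The genes whose levels over the 6 libraries were most like those of HAPLN1 were PXYLP1, CADM4, ITIH6, ACSF2 and LPL, with Pearson r between 0.9982 and 0.9991 on log2(CPM + 1) among 12479 protein-coding genes. For ITIH6 they were CD200, MGAM2, SLAIN1, B3GAT1 and CPE, with r between 0.9986 and 0.9992. All of these genes share the gap between the groups, and r was above 0.9 for 9.18% of genes with HAPLN1 and for 9.72% with ITIH6. PXYLP1 had 46.1, 61.4 and 51.8 CPM in ALDH_High and 7.37, 7.86 and 9.71 CPM in ALDH_Low, with library 2 the highest of ALDH_High and library 3 the highest of ALDH_Low, as for HAPLN1. CD200 had 4.30, 5.18 and 4.34 CPM against 0.156, 0.134 and 0.1797 CPM.

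In the authors' deposited table, which rests on the same libraries, the coefficient of the high group minus that of the low group was 2.86 for HAPLN1, 1.58 for HAPLN3, -1.34 for VCAN, 2.60 for CEMIP and 0.022 for CD44 on the log2 scale. In the authors' deposited table the same difference was 0.16 for HAS2, -0.43 for HAS3, 3.94 for TNFAIP6, 5.40 for ITIH5 and 5.72 for ITIH6.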

How the data were processed

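RNA was measured with TruSeq stranded mRNA libraries, per the labels' protocols, in 3 ALDH_High and 3 ALDH_Low libraries, grouped by their titles. The submitters' processing notes name FastQC 0.11.3, STAR 2.5.1b, HTSeq 0.6.1, DESeq2 and GRCh38, with no roles. The authors deposited counts per gene as whole numbers, treated here as estimated counts that the authors deposited without normalization, since 133 to 177 genes per library had a count of 0 beside a TPM above 0. The authors also deposited TPM values, each library summing to 1000000, and log2 coefficients against a group 1A3 in a DESeq2 model, per the file headers; other groups of that model were not analysed here. Rows with an Ensembl identifier but no gene name (261, at most 0.0267% of a library) stayed in.

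Genes were filtered with filterByExpr, scaled by TMM and tested with edgeR 4.0.16 (quasi-likelihood F-test, two-sided, no replicate term; R 4.3.3), with Benjamini-Hochberg adjustment across the 17047 genes and a threshold of 0.05. The test was checked on simulated counts. Standard errors are the log2 difference over the square root of F. Total counts limit low genes: 3 counts was taken as what a count of 0 allows, and reads have no molecular identifiers. The 15 alternatives were other scalings (DESeq2 size factors, upper quartile), other count filters, the replicate block, each library left out, DESeq2 1.42.0, and limma 3.58.1 on log2(TPM + 1) or log2(TPM + 0.1). The members, lists, motifs and naming rule were chosen with earlier results of these data known. Named were all members, up to 3 called genes per list with the smallest p, the 2 nearest tested genes on each side of HAPLN1, VCAN and ITIH6, and the 5 genes most like HAPLN1 and ITIH6 (mean of at least 1 CPM); others named from the lists, such as UGDH, HYAL2, HMMR, CHPF, CHST3, BCAN and ITIH4, and the genes that overlap members were chosen after their values were seen. Positions are from GENCODE 44 on GRCh38, matched by identifier for 99.1% of genes tested. Promoter sequences are from RefSeq (GRCh38.p14), matched by symbol for 9 of the 10 members.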

Additional observations from a re-analysis of the deposited data

How the results depend on the processing

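HAPLN3 and CEMIP kept their direction past the threshold under all 15 alternatives. TNFAIP6 and ITIH5 did so under the 14 in which they were tested, but they reached the main filter through ALDH_High alone. HAPLN1 had log2 differences from 2.75 to 2.95 over the 15. It was chosen for its rise in these same libraries, so this range is a description and no support. The size of low genes depended on the setting: TNFAIP6 ranged from 1.49 to 4.26, ITIH5 from 2.16 to 5.66, ITIH6 from 2.04 to 6.20, ACAN from 2.18 to 5.27 and ADAMTS20 from 0.44 to 2.25. The lowest of each came from limma on log2(TPM + 1), where the pseudocount by construction holds low genes down. That scale also gave -0.66 for HYAL4, 1.43 for TRO, 1.53 for CSGALNACT1, 2.06 for ADAMTS4 and 2.87 for TFAP2B, and log2(TPM + 0.1) gave 4.43 for ITIH5, 4.42 for ITIH6 and 4.26 for ACAN. TNFAIP6 and ITIH5 were not tested with at least 10 counts in every library, a filter that by construction left 3 members past the threshold, 2 of them higher. The count of lower members, 1 as reported, was 2 with no filter on low counts, where HAS3 joined VCAN, and 0 in all 3 limma fits; with a mean TPM of at least 1 VCAN was not tested. Fits without 1 library gave 4 to 6 members, 4 higher in each and 0 to 2 lower, 12 to 15 pathway genes (9 to 11 higher, 3 to 4 lower) and 2488 to 4221 of all genes (1306 to 2172 higher, 1073 to 2049 lower). In limma, lower genes over the whole table were 1047 on log2(TPM + 1), 1051 on log2(TPM + 0.1) and 851 without a TPM filter, where the total was 2006 and 1155 were higher; the cause was not tested. Sign changes were seen for genes whose differences did not pass. CD44 was -0.048 with upper-quartile factors and -0.058 to 0.072 without 1 library, HAS2 -0.23 to 0.43 and EDIL3 -0.023 to 0.36. TMEM167A was -0.091 to 0.082 without 1 library, 0.0051 in DESeq2 and 0.031 in the limma fits. DSE missed the threshold in limma without a TPM filter (-0.77, adjusted p 0.0967).

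The replicate block gave 5 members, 4 higher and 1 lower, 15 pathway genes and 3748 genes in all. Deviations from the group means correlated at 0.15, 0.076 and 0.11 between libraries of the same number, and since the second value is under 0.1 the numbers were treated as names only. Each library did correlate best with its own number, a hint from the data and not the design. Depth limits TNFAIP6, ITIH5, ITIH6 and HYAL4, each at or below 12 counts in every library of its lower group.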
